A study of Mus musculus with 6 samples.

Results

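FOG1 and the GATA transcription factors it can bind were followed in mouse megakaryocytes, the cells that release platelets, on arrays that compared FOG1 ki/ki cultures with controls. The genes were Zfpm1, which encodes FOG1, its paralogue Zfpm2, which encodes FOG2, and Gata1, Gata2 and Gata3. They were represented by every probe set that the platform annotation gives to 1 of these 5 genes alone, which were 8 of the 45101 probe sets and 5 of the 18193 genes named by such probe sets. A probe set is a group of array probes that reports 1 signal. The FOG1 ki/ki group held 3 arrays, replicates 1 to 3, whose genotype label reads FOG1-/- ki/ki. The labels do not say what the knocked-in allele encodes. The control group held 3 arrays, 2 labelled FOG1+/- (replicates 1 and 2) and 1 labelled FOG1+/+ (replicate 3). In all 6 cultures the cells had been grown from fetal liver cells in medium with thrombopoietin, mature megakaryocytes were isolated on an albumin gradient, and the strain background was mixed C57BL/6 and Sv129. By the labels these are biological replicates. Neither the age of the fetuses nor any pooling of them is given.

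FOG1 is a zinc finger cofactor that does not act through a DNA site of its own but binds the amino-terminal zinc finger of GATA factors. Its amino terminus recruits NuRD, a complex that remodels and deacetylates chromatin. GATA1 and FOG1 together are needed to make megakaryocytes and red cells, and during that process GATA1 takes the place of GATA2 at shared sites and the Gata2 gene is turned down, a step called the GATA switch. GATA2 itself serves stem cells, progenitors and mast cells, and GATA3 serves T cells and other lymphocytes.

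The labelled cell type was checked on markers. Of 14 megakaryocyte markers 12 had a probe set naming that gene alone, and their summed signal was 21189 to 27477 on FOG1 ki/ki arrays and 24040 to 31550 on control arrays. All 12 had a lower level in FOG1 ki/ki, with a median log2 difference of -0.20. Of all 11284 genes, each taken by its brightest tested probe set, 54.9% had a higher level, and the median was 0.03. By limma 0 of the markers passed and 4 had an unadjusted p under 0.05, as 6.78% of all genes did. Gp6, the platelet collagen receptor, passed with the replicate number as a block, where 0.319% of all genes were called lower. The median signal of an array lay between 5.93 and 12.3, so signals of about this size stand near background. Tests ran on log2(signal + 16) in the 22518 probe sets whose mean signal was in the upper 50%. With limma, 8 of these (0.0355%) rose and 7 (0.0311%) fell in FOG1 ki/ki at an adjusted p under 0.05, together 0.0666% of those tested. Same-numbered arrays of the groups deviated together, and with the replicate number as a block 56 probe sets (0.249%) rose and 64 (0.284%) fell, together 0.533%.

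Of the 8 probe sets, 5 passed the filter on dim signal. These were both Zfpm1 probe sets, the Gata1 probe set and both Gata2 probe sets. By limma's adjusted p none of the 5 passed, against 0.0666% of all probe sets tested, and none passed in the blocked fit, against 0.533%. Both Gata2 probe sets, and no other of the 5, had an unadjusted p under 0.05, which 5.84% of all probe sets tested had and 2.39% had with a higher level in FOG1 ki/ki. The values of all 8 probe sets are shown in the plot of signal by array.

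**Figure D1:**
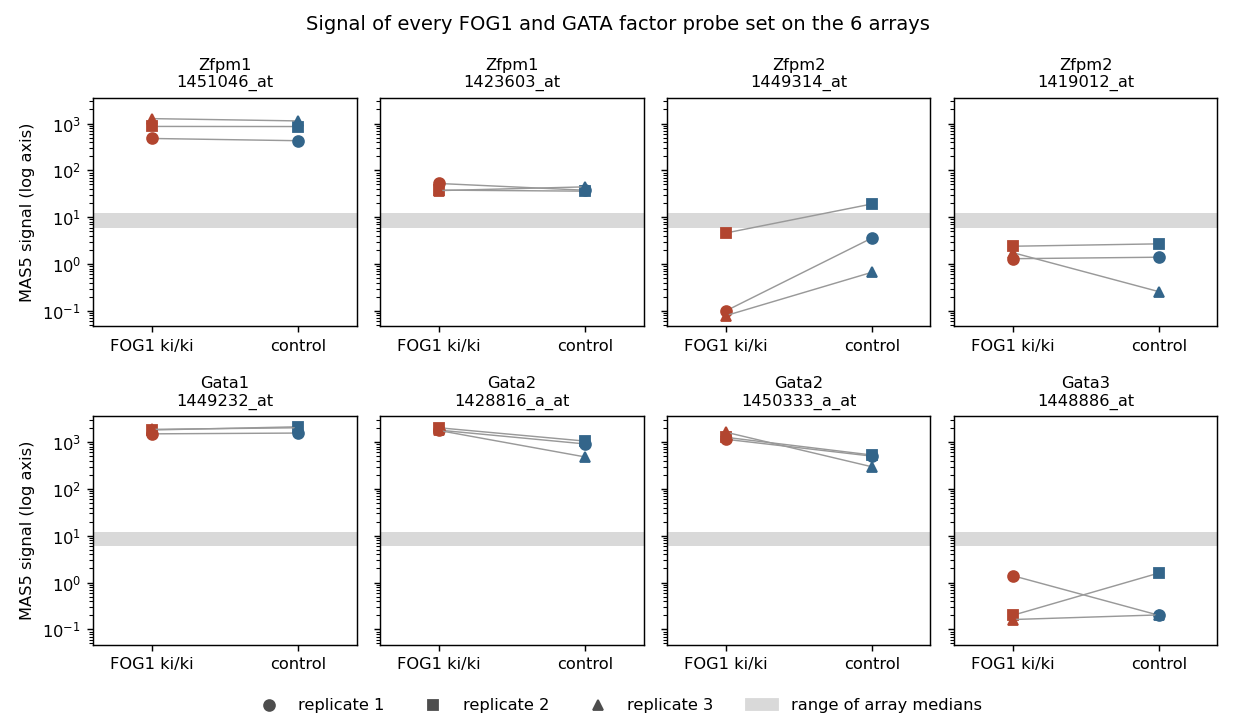
MAS5 signal (log axis) of the 8 probe sets on the 3 FOG1 ki/ki arrays, left in each panel, and the 3 control arrays, right, with grey lines joining arrays of the same replicate number and a grey band for the range of array medians, 5.93 to 12.3. The Gata2 points of FOG1 ki/ki lie above all control points, the Zfpm1 and Gata1 points overlap, and all Zfpm2 and Gata3 points but 1 lie below the band.

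Zfpm1 transcripts were present in both groups, at levels that overlapped. The brighter probe set, 1451046_at, had signals of 480.0, 868 and 1274 in FOG1 ki/ki replicates 1, 2 and 3, against 429.7, 862 and 1137 in the control replicates. The groups overlapped, and in each of them replicate 1 was lowest and replicate 3 highest, so arrays of the same number resembled each other more than arrays of the same genotype. The log2 difference was 0.11 (SE 0.43, 95% interval -0.88 to 1.10, limma adjusted p = 0.9999). Within equal replicate numbers the differences were 0.15, 0.01 and 0.16, and the interval with the block was -0.15 to 0.36. The log2 ratio of 3′ to 5′ Gapdh probe sets, a sign of RNA length, was also lowest in replicate 1 and highest in replicate 3, at 0.26, 0.71 and 1.25 in FOG1 ki/ki and 0.31, 0.80 and 0.90 in control, and its part in the Zfpm1 levels was not tested. A probe set outside the altered part of a gene does not check a genotype label, and where these probes lie relative to the knocked-in change is not given, so the levels check nothing about the labels.

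The dimmer Zfpm1 probe set, 1423603_at, had signals of 52.5, 37.9 and 37.0 in FOG1 ki/ki, against 37.7, 36 and 44.5 in control. These values did not show the spread by replicate number seen with the brighter probe set. The log2 difference was 0.07 (SE 0.26, 95% interval -0.52 to 0.67), and the within-number differences were 0.35, 0.05 and -0.19, which did not share a sign. The sign of the group difference was not stable for either probe set. The brighter stood at -0.21 when FOG1 ki/ki replicate 3 was left out and at -0.28 when control replicate 1 was, and the dimmer at -0.05 without FOG1 ki/ki replicate 1.

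FOG2, the product of Zfpm2, is the partner of GATA factors in heart and gonads. Its probe set 1449314_at read 0.1, 4.6 and 0.0792 in FOG1 ki/ki, against 3.6, 19.2 and 0.668 in control, and control replicate 2 was the only array on which it stood above the array median. The other Zfpm2 probe set, 1419012_at, read 1.3, 2.4 and 1.75 in FOG1 ki/ki, against 1.4, 2.7 and 0.257 in control. Neither passed the filter, and at such signals the order of arrays is not informative. In the fit without a filter their log2 differences were -0.37 (adjusted p = 0.9998) and 0.03 (adjusted p = 0.9998).

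The upstream windows of the expressed GATA genes are shown because GATA factors are known to act on each other's genes. They hold the 250 bases before a transcription start in RefSeq, mouse build GRCm38.p6. Capitals mark the letters GATA on either strand (TATC where it lies on the other strand) and CCAAT on either strand (ATTGG on the other), a motif of many promoters. RefSeq gives Gata2 a distal and a proximal start.
Gata2 distal, chr6:88193641-88193890, plus strand: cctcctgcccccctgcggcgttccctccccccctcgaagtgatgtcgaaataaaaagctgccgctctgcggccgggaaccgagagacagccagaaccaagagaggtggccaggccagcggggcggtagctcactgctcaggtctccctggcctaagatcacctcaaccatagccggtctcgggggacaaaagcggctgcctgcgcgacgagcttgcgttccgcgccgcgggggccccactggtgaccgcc
Gata2 proximal, chr6:88198414-88198663, plus strand: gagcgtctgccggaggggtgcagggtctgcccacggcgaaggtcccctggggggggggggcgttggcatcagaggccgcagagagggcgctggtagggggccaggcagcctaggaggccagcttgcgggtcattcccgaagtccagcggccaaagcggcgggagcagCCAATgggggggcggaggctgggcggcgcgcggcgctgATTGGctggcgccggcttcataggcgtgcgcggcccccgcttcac
Gata1, chrX:7967911-7968160, minus strand: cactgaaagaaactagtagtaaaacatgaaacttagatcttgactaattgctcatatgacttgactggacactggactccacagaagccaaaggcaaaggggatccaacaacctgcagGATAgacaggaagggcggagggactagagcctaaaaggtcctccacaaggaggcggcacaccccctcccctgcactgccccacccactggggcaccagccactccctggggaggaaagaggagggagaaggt
Neither Gata2 window held the letters GATA, and the Gata1 window held them once, starting 132 bases before the start. Of the 32851 windows of this length in the table, 53.6% held them on either strand. The proximal Gata2 window held CCAAT letters in 2 places, 83 and 45 bases before the start, and 33.8% of all windows held them. The absence of these letters from a window says nothing about sites farther away.

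Gata1, the main GATA factor of megakaryocytes and red cell precursors, was bright on all arrays. Its probe set 1449232_at read 1496, 1808 and 1864 in FOG1 ki/ki, against 1554, 2115 and 2018 in control. The groups overlapped, with replicate 1 lowest in each. Each FOG1 ki/ki array stood slightly below the control array of its number, with log2 differences of -0.05, -0.22 and -0.11. The group difference was -0.13 (SE 0.16, 95% interval -0.50 to 0.24, limma adjusted p = 0.9999), and with the block the interval was -0.34 to 0.08. Both intervals leave out a halving, which is a log2 difference of -1. Gata1 lies on the X chromosome, and the cultures were not matched for sex. Xist, the RNA of the inactive X chromosome, read 2.4, 4.6 and 4.25 in FOG1 ki/ki, against 807 in control replicate 1 and 0.3 and 4.14 in control replicates 2 and 3. The Gata1 difference without control replicate 1 was -0.27 (adjusted p = 0.816).

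Gata2, the GATA factor of progenitors and mast cells, was the member with the largest difference. Probe set 1428816_a_at read 1797, 2017 and 1767 in FOG1 ki/ki, against 911, 1048 and 481 in control. Every FOG1 ki/ki array stood above every control array, which held for 5.32% of all probe sets tested (the opposite order held for 4.91%). The FOG1 ki/ki arrays lay close together, with a mean of 1860 ± 137, while the controls averaged 813 ± 296 (SD, n = 3 each), and the FOG1+/+ control was lowest. The signal in FOG1 ki/ki was 1.97, 1.92 and 3.67 times that of the control of the same number for replicates 1, 2 and 3. The log2 difference was 1.25 (SE 0.27, 95% interval 0.62 to 1.88), a 2.38-fold higher level in FOG1 ki/ki on the log2(signal + 16) scale.

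The other Gata2 probe set, 1450333_a_at, read 1145, 1262 and 1623 in FOG1 ki/ki, against 499.7, 528 and 296 in control. It showed the same separation of the groups and the same low FOG1+/+ array. The ratios to the control of the same number were 2.29, 2.39 and 5.49. The log2 difference was 1.60 (SE 0.26, 95% interval 1.005 to 2.19), or 3.03-fold.

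These differences did not pass the correction for the number of probe sets. The limma adjusted p was 0.234 for 1428816_a_at and 0.112 for 1450333_a_at, and 0.0693 for both with the replicate block. The unadjusted p was 0.00178 for 1428816_a_at and 0.000253 for 1450333_a_at, with 171 (0.759%) and 50 (0.222%) of the 22518 probe sets at or below these values. A log2 difference at least as large was found in 209 (0.928%) and 111 (0.493%) probe sets. An exact two-sided permutation test of either probe set gave p = 0.1, the smallest that 3 against 3 arrays allow. With the block and without both replicate 1 arrays the adjusted p was 0.0243 and 0.0164, and without both replicate 3 arrays, which leaves FOG1+/- as the only control genotype, it was 0.0255 and 0.0280. Without both replicate 2 arrays the blocked adjusted p was 0.0779 for both. The blocked fits without replicates 1, 2 and 3 called 613, 40 and 199 of the 22518 probe sets. With so few arrays left, the blocked p values rest largely on the spread that limma shares over all probe sets. The same omissions without the block gave limma adjusted p = 0.643 and 0.417 (replicate 1), 0.919 and 0.801 (replicate 2), and 0.302 and 0.251 (replicate 3). The log2 differences without both replicate 3 arrays were 0.95 for 1428816_a_at and 1.20 for 1450333_a_at. Without the FOG1+/+ array alone they were 0.92 and 1.34, with unblocked adjusted p = 0.191 and 0.150. Whether the larger difference in replicate 3 goes with the FOG1+/+ genotype or with that replicate cannot be told apart, since there was 1 such array.

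**Figure D2:**
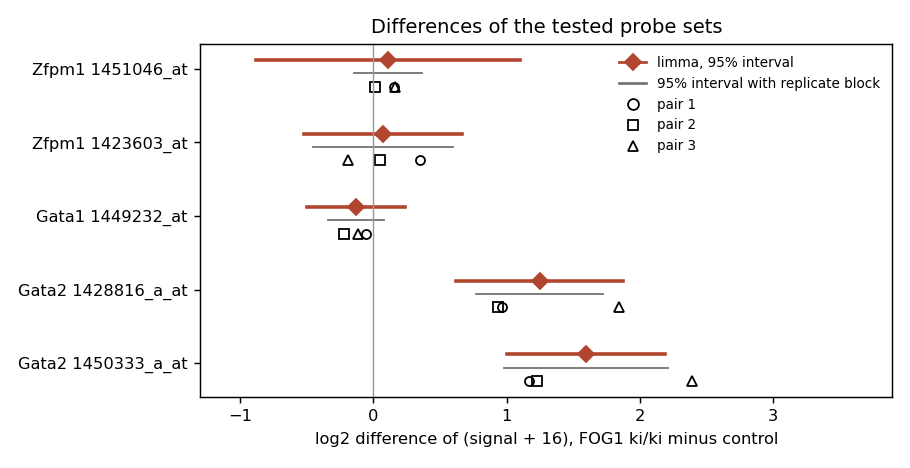
Log2 differences of the 5 tested probe sets, FOG1 ki/ki minus control. Diamonds with thick lines give the limma estimate and its 95% interval, thin grey lines the interval with the replicate block, and open symbols the difference within each replicate number. Both Gata2 intervals lie above 0, and those of Zfpm1 and Gata1 include it.

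In each pair of same-numbered arrays the difference of Gata2 was above that of Gata1. The log2 difference of Gata2 lay above that of Gata1 by 1.02, 1.16 and 1.96 in replicates 1, 2 and 3 for 1428816_a_at, and by 1.23, 1.46 and 2.51 for 1450333_a_at. All of these values were positive and the highest came from replicate 3 with either probe set. Since the Gata1 differences were small, these values largely restate those of Gata2, and no share over all probe sets was computed. The levels of the genes themselves cannot be set against each other, since probe sets differ in brightness per transcript.

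**Figure D3:**
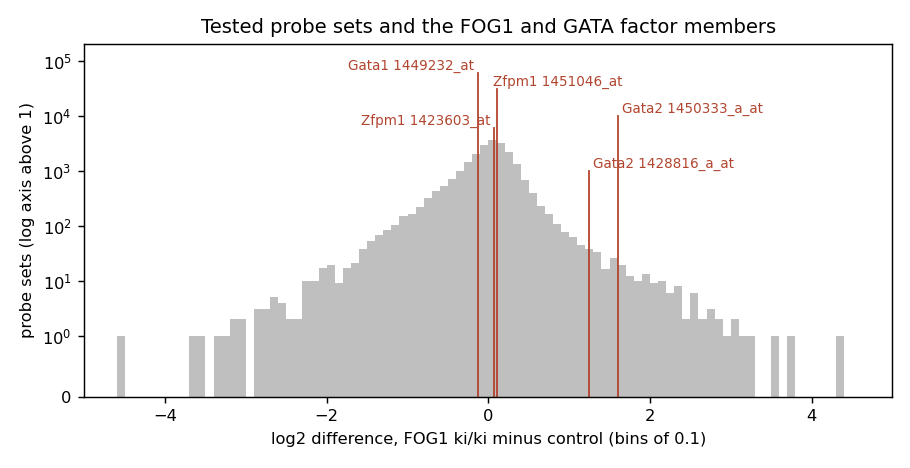
Number of tested probe sets (log axis above 1) by log2 difference, FOG1 ki/ki minus control, in bins of 0.1, with the 5 tested FOG1 and GATA factor probe sets marked. The Zfpm1 and Gata1 probe sets stand in the centre of the distribution and the Gata2 probe sets in its upper tail, with 209 and 111 probe sets at or beyond them.

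Mast cell genes were read on the same arrays, since mast cells express Gata2. In cultures such as these, fewer cells of a type and less RNA per cell cannot be told apart. Of 15 mast cell and basophil markers 13 had a probe set, and their summed signal was 6581 to 6832 on FOG1 ki/ki arrays and 285 to 3408 on control arrays, with 285 in the FOG1+/+ array. All 10 that could be tested had a higher level in FOG1 ki/ki, against 54.9% of all 11284 genes tested by their brightest probe set. By limma 0 passed, 3 (where 6.78% of all genes did so) had an unadjusted p under 0.05, and 1 passed with the block, where 0.319% of all genes were called higher. That gene was Ms4a2, a chain of the IgE receptor. The brightest of the list was Fcer1a, another chain of the IgE receptor, at 3317, 3696 and 3912 in FOG1 ki/ki, against 1891, 2168 and 93.1 in control (log2 difference 2.25, adjusted p = 0.881). The protease gene Gzmb read 509.6, 923 and 1785 in FOG1 ki/ki, against 327, 189 and 5.96 in control (3.06, adjusted p = 0.519). For both genes and Ms4a2 every FOG1 ki/ki array stood above every control array. This held for 3 of the 10 tested markers and for 6.3% of all genes. For Fcer1a and Gzmb the FOG1+/+ array was far below the other controls. The mast cell protease gene Cpa3 read 638, 382 and 170 in FOG1 ki/ki, against 239, 224 and 68.2 in control, and the basophil protease gene Mcpt8 read 1206, 446 and 99.4 in FOG1 ki/ki, against 555, 336 and 24.9 in control. For these genes the groups overlapped, and replicate 3 was lowest in each. The proteases Mcpt1, Mcpt2 and Cma1 differed by 1.36, 1.19 and 0.86 with signals of 214 or lower. The mast cell protease genes Mcpt4, Tpsb2 and Tpsab1 stood near background, at 16.3 or lower on every array, and the stem cell factor receptor Kit was dim, at 31.8, 38 and 47.9 in FOG1 ki/ki, against 41.6, 28 and 10.7 in control. The part of mast cells in the Gata2 difference was not tested.

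Other cell types were represented to different degrees. Summed signals of endothelial markers were 1250 to 1579 in FOG1 ki/ki and 606 to 691 in control, and the brightest of them in FOG1 ki/ki was Tek, an angiopoietin receptor, at 912, 1176 and 1194 in FOG1 ki/ki, against 381, 371 and 204 in control (log2 difference 1.77, limma adjusted p = 0.103). Without Tek the other 5 summed to 309 to 385 in FOG1 ki/ki and 269 to 402 in control, which overlapped. Of these, Cdh5 (0.59), Kdr (0.74) and Eng (0.25) were above control, and Tie1 (-0.16) and Emcn (-0.51) were below it. Cdh5 was dim, at 14.6, 23.1 and 28.7 in FOG1 ki/ki, against 10.1, 11.6 and 5.88 in control (limma adjusted p = 0.820). The groups did not overlap for Cdh5 or Tek, as for 6.3% of all genes in this direction. The monocyte and macrophage markers summed to 3956 to 9509 in FOG1 ki/ki and 7333 to 12878 in control, and the fibroblast markers to 134 to 2681 in FOG1 ki/ki and 206 to 6374 in control. All 8 of each list had a lower level in FOG1 ki/ki, with median log2 differences of -0.98 and -0.76, and 0 passed. Over all genes tested, 54.9% had a higher level and the median was 0.03. The T and innate lymphoid markers gave 840 to 1330 in FOG1 ki/ki and 547 to 1296 in control, and single genes of this list moved in opposite directions. Nkg7 read 686, 645 and 486 in FOG1 ki/ki, against 205, 273 and 34.7 in control (log2 difference 2.06, limma adjusted p = 0.467). Il7r read 105, 643 and 304 in FOG1 ki/ki, against 677, 976 and 473 in control (-1.24, adjusted p = 0.911). The hepatocyte markers gave 156 to 449 in FOG1 ki/ki and 329 to 489.6 in control. The erythroid sum, 2330 to 2671 in FOG1 ki/ki and 2662 to 2929 in control, came mostly from the transferrin receptor gene Tfrc, which other dividing cells also express, and without it was 288 to 469 in FOG1 ki/ki and 239 to 816 in control. The red cell genes Hba-a1, Alas2 and Slc4a1 were below the array median on every array. The mast cell sums did not overlap between groups, nor did the endothelial sums while Tek was counted. How often sums of other genes separate the groups was not counted. The part of these cell types in the Gata2 difference was not tested.

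Gata3, the GATA factor of T cells, was near background on all arrays. Its probe set 1448886_at read 1.4, 0.2 and 0.162 in FOG1 ki/ki, against 0.2, 1.6 and 0.204 in control. The CD3 chain genes of T cells, Cd3e, Cd3d and Cd3g, were also dim, with 20.4 the highest signal of any of them. Nkg7 and Il7r of the same marker list were brighter, as given above. The log2 difference of Gata3 in the fit without a filter was -0.01 (adjusted p = 0.9998).

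The genes that work with FOG1 and the GATA factors were described from 5 lists, each gene by its brightest probe set. Over all 11284 genes the median log2 difference was 0.03, 54.9% lay above 0, and 6.78% had an unadjusted p under 0.05. Without the block limma called 0.062% higher and 0.0354% lower. With the block it called 0.319% higher and another 0.319% lower. Of the 15 FOG1 cofactors, which are NuRD subunits, the CtBP corepressors and Tacc3, 12 were above control and 3 below, with a median of 0.12 (0.07 with FOG1 ki/ki replicate 3 left out, 0.06 with control replicate 3 left out) and a range from -0.15 to 0.27. None passed, and 0 had an unadjusted p under 0.05. The values with the smallest p were 0.20 for Rbbp7, a histone chaperone of NuRD, -0.15 for Mbd2, 0.22 for Mta1 and 0.27 for the corepressor Ctbp2.

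Of 12 DNA-binding partners of GATA factors and their adaptors, 9 were above control and 3 below, with a median of 0.25 (0.16 and 0.13 under the same omissions). None passed with limma, with or without the block, and 2 had an unadjusted p under 0.05. Klf1, a factor of red cell precursors, read 101, 162 and 78.7 in FOG1 ki/ki, against 43.7, 20.1 and 3.04 in control (log2 difference 1.86, adjusted p = 0.320). Lmo2, the adaptor that joins GATA1 to Tal1, read 2055, 2254 and 2623 in FOG1 ki/ki, against 1903, 1832 and 1689 in control (0.35, adjusted p = 0.692). The groups did not overlap for either gene, as for 6.3% of all genes in this direction. Tcf3 differed by 0.43 and the repressor Gfi1b by -0.20. Their groups did not overlap either, so 4 of the 12 separated. Gfi1b did so in the lower direction, as did 4.94% of all genes. Of the other GATA family genes, Gata4, Gata5 and Gata6 were left out as dim, with no signal above 7.75, and Trps1, a repressor with a GATA-type finger, differed by -0.67 (adjusted p = 0.9999). This value was -0.18 with FOG1 ki/ki replicate 3 left out, -0.22 with control replicate 2 left out and -1.27 with control replicate 3 left out.

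Of genes known to be activated by GATA1 in megakaryocytes, 14 had a probe set, Zfpm1 itself among them, and 10 of these are also in the megakaryocyte marker list. Below control stood 12 and above it 2, with a median of -0.20. Leaving out 1 FOG1 ki/ki array put this median at -0.04 (replicate 1) or -0.33 (replicate 3), and leaving out 1 control array put it at -0.07 (replicate 3) or -0.31 (replicate 1). None passed without the block, 3 had an unadjusted p under 0.05, and with the block Gp6 fell. It read 345, 264 and 600.2 in FOG1 ki/ki, against 702, 928 and 1500.1 in control (log2 difference -1.35, adjusted p = 0.392, blocked adjusted p = 0.0441). The megakaryocyte tubulin Tubb1 read 1334, 1318 and 902 in FOG1 ki/ki, against 2000.1, 2910.1 and 2296 in control (-1.01, adjusted p = 0.201, blocked adjusted p = 0.0674). The groups did not overlap for 4 of the 14 genes, these 2 among them, all lower in FOG1 ki/ki, as for 4.94% of all genes. The receptor subunit Gp1bb differed by -0.52 and P-selectin, Selp, by -0.21.

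A list of 10 GATA2 and progenitor genes was taken as repressed by GATA1 and FOG1, which was not checked gene by gene. Gata2 was among them. Of the 10, 6 were above control and 4 below, with a median of 0.36. A pseudocount of 64 gave a median of 0.23, the omission of FOG1 ki/ki replicate 3 gave 0.21 and that of both replicate 3 arrays 0.14. None passed without the block, 4 had an unadjusted p under 0.05, and with the block Ms4a2 rose. It read 704, 564 and 189 in FOG1 ki/ki, against 102, 62.9 and 13.3 in control (log2 difference 2.77, SE 0.62, adjusted p = 0.251, blocked adjusted p = 0.0185). Like Gata2, it was lowest in the FOG1+/+ array, but unlike Gata2 it was also low in FOG1 ki/ki replicate 3. The myeloid factor Cebpa differed by -1.10 (adjusted p = 0.468) and the progenitor marker Cd34 by -0.70 (adjusted p = 0.818), so the list did not move one way. The lists share Zfpm1 or Gata2 with the members and were chosen with these data known. Ms4a2 and Kit are also in the mast cell list, so the blocked call of Ms4a2 is the same in both. Lyl1 is also among the DNA-binding partners, and Klf1 of that list is also an erythroid marker.

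**Figure D4:**
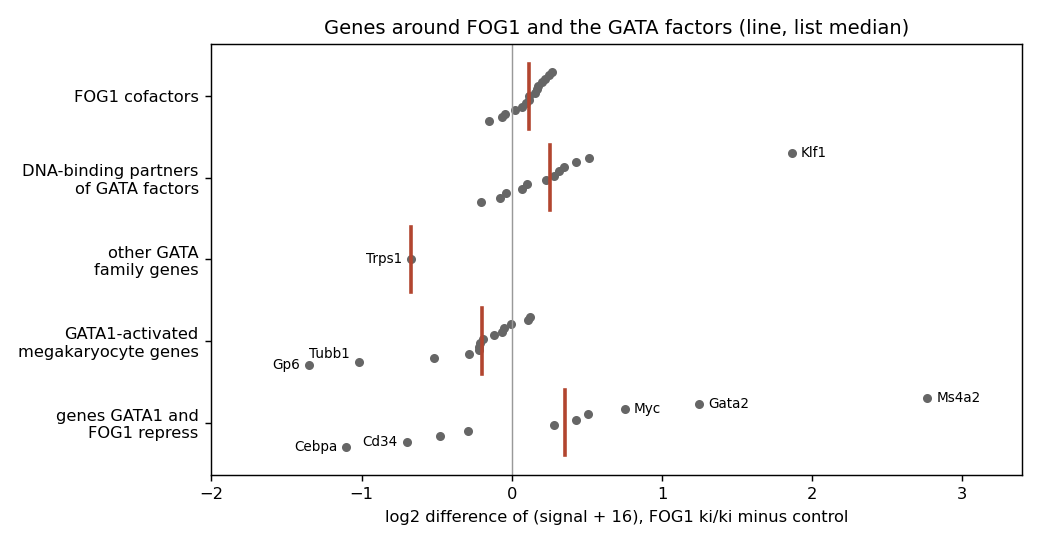
Log2 difference of each tested gene of the 5 lists, FOG1 ki/ki minus control, with a vertical line at the median of each list and names for genes beyond 0.65 in either direction. The FOG1 cofactors lie between -0.15 and 0.27, and the widest spread, from -1.10 to 2.77, is in the list taken as repressed by GATA1 and FOG1.

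The genes with the most similar pattern were found by the root mean square difference of log2 values, each gene first centred on its mean over the 6 arrays, among 11281 genes. This is a description over 6 arrays that share their replicate numbers. Since the genes were chosen by their values on these arrays, an order of arrays shared with Gata2, Zfpm1 or Gata1 follows from the choice. For Gata2 the nearest were Armcx2 at 0.0668, the G protein subunit gene Gngt2 at 0.0735, the RNA-binding protein gene Mex3b at 0.118, the transglutaminase gene Tgm2 at 0.140 and the glycine transporter gene Slc6a9 at 0.150, where the median gene stood at 0.757. Tgm2 read 2024, 2494 and 2231 in FOG1 ki/ki, against 922, 1455 and 583 in control. Each of the 5 was lowest in the FOG1+/+ array and none passed limma's test, with adjusted p from 0.276 to 0.467.

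For Zfpm1 the nearest genes were Triobp at 0.0772, Kidins220 at 0.0890, Mindy1 at 0.0907, Lst1 at 0.0935 and Csnk1d at 0.101, against a median of 0.648. All followed the replicate number, lowest on the replicate 1 arrays and highest on the replicate 3 arrays in each group. For Gata1 the nearest were Crlf2 at 0.0514, Ltbp1 at 0.0545, Tmem234 at 0.0563, Ndufa13 at 0.0582 and Mtcp1 at 0.0606, against a median of 0.361, and all were lowest in replicate 1 of each group.

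**Figure D5:**
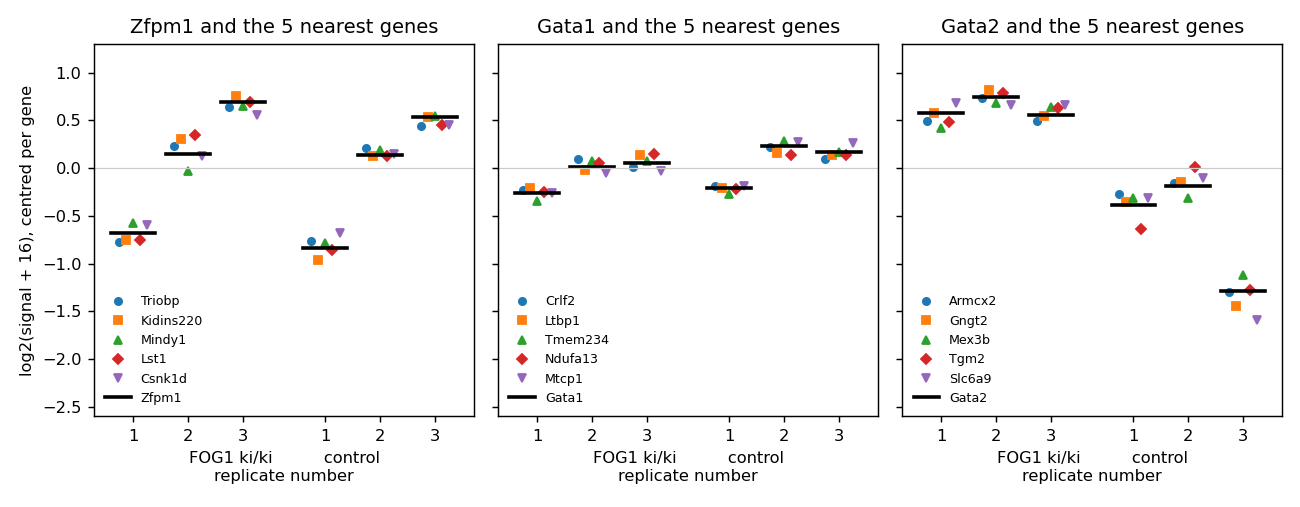
Centred log2(signal + 16) of Zfpm1, Gata1 and Gata2 (black bars) and of the 5 genes nearest to each (coloured symbols) on the 3 FOG1 ki/ki arrays, left in each panel, and the 3 control arrays, right. Zfpm1 follows the replicate number in both groups, Gata1 is lowest on the replicate 1 array of each, and Gata2 is higher on all FOG1 ki/ki arrays and lowest in control replicate 3.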

How the data were processed

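RNA of 6 megakaryocyte cultures, 3 FOG1 ki/ki and 3 control, was amplified with NuGEN kits and hybridised to 1-colour arrays, per the labels' protocols. The authors deposited 1 linear intensity for each probe set. The submitters' processing notes name MAS5 without a version. Each deposited intensity column had the same mean after trimming 2% at each end, 150, so a change in total RNA per cell cannot be seen. The number of arrays limits the precision.

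Genes came from the platform annotation. The 64 control probe sets and those with a mean signal under 10.9 (the lower 50%) were left out. Differences in log2(signal + 16), which understates changes of dim genes, were tested with limma 3.58.1 in R 4.3.3 (lmFit, eBayes with a trend) and Benjamini-Hochberg adjustment over 22518 probe sets, after a check on simulated data. Unadjusted and adjusted p values, intervals and SE are limma's, and p values measure the spread between these samples only. Members, lists and the naming rule were chosen with earlier results of these data known. The rule named every member, list genes that passed, up to 4 per list with the smallest unadjusted p, and 5 nearest genes each for Zfpm1, Gata1 and Gata2. Some marker genes, Xist and the 3 CD3 chain genes were added to describe the cultures.

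Same-numbered arrays had correlated deviations from their group means (0.436, 0.647 and 0.596 for replicates 1, 2 and 3), and this was read as pairing. Deviations within a group sum to 0, which lowers the correlations of other pairs. The sums without Tek or Tfrc were added after the values were seen. Alternatives were other pseudocounts, scalings, filters and variance models, 1 probe set per gene, the replicate block, and leaving out arrays or pairs. Permutation tests went through every split of the arrays into equal groups, with means from numpy 2.4.6. The trimmed means and t quantiles came from scipy 1.17.1. Tables were handled in pandas 2.3.3 on Python 3.11.15, and plots drawn by matplotlib 3.10.9.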

Additional observations from a re-analysis of the deposited data

How the results depend on the processing

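None of the 5 tested FOG1 and GATA factor probe sets passed under any single-array omission, pseudocount, scaling, filter or variance model tried, or with the replicate block on all arrays. With the replicate block, 2 passed without both replicate 1 arrays and 2 without both replicate 3 arrays, the Gata2 probe sets in either case. Few arrays remain in such fits, so these calls rest largely on the spread shared over all probe sets. The log2 difference of Gata2 stayed between 0.92 and 1.46 for 1428816_a_at and between 1.20 and 1.81 for 1450333_a_at in all alternatives, that of Gata1 between -0.27 and -0.03. The sign turned for Zfpm1 1451046_at without FOG1 ki/ki replicate 3 (-0.21) or control replicate 1 (-0.28), and for 1423603_at without FOG1 ki/ki replicate 1 (-0.05) or both replicate 1 arrays (-0.069, the same with the replicate block). When arrays or pairs were left out in turn, the values ranged from -0.28 to 0.48 for 1451046_at and from -0.069 to 0.20 for 1423603_at. The count of probe sets called, 15, was 24 with quantile normalization, 1 with no filter, 4 in the brightest 25% and 120 with the replicate block, of which 15 were shared. With 1 probe set per gene, 11 rose and 6 fell. Leaving out arrays gave 0 to 3 calls without the block, and leaving out a pair gave 613, 40 or 199 calls with the replicate block for replicates 1, 2 and 3. Among the genes of the 5 lists, 0 were called, and 2 with the replicate block, or 6, 1 and 2 with it when pairs 1, 2 and 3 were left out. The causes were not tested. MAS5 values near background limit Zfpm2 and Gata3.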
